A study of Mus musculus with 3 samples.

Results

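Among single bone marrow derived macrophages (BMDMs), 160 cells that met a rule on transcripts of the MHC class II genes were described. They were 160 of 15806 kept cells, and their working label was dendritic-like cells high in MHC class II. They were chosen by measured values of 4 genes. A cell was taken when it held at least 1 UMI (unique molecular identifier, the tag that counts each transcript once) of each of *H2-Aa*, *H2-Ab1* and *H2-Eb1*, and when these 3 genes together with *Cd74* made at least 0.2% of its UMIs. This summed share is called the class II share below, and the cells are called class II-high cells. A kept cell passed 3 limits, over 500 UMIs, over 500 genes and a mitochondrial share of less than 5%. The BMDMs came from marrow of 6 to 8 week old C3H/HeN mice, pooled per the paper's general culture methods, and were grown with L929 cell conditioned medium. Ctrl cells were untreated per the label and given PBS per the paper, and were collected at 4 h. LP1 cells were treated with purified borrelial lipoproteins (*Bb*LP) at 1 µg/mL for 1 h, and LP4 cells were treated with the same dose for 4 h. For the single cells the paper names BMDMs of 3 mice, treated independently and pooled afterwards. There was 1 droplet library per condition, made from the 3 pooled wells. Differences between conditions are therefore unreplicated and were not tested. All intervals below are at the 95% level and cover counting error only.

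MHC class II molecules are pairs of an alpha and a beta chain that carry peptides from the endosomes to the cell surface, where CD4+ T cells read them. The invariant chain, made by *Cd74*, guides the new pair to the endosomes, H2-DM exchanges the peptide there, and the coactivator CIITA switches the whole gene set on. Dendritic cells and B cells make class II without a stimulus, whereas macrophages make little of it until interferon gamma reaches them. *Flt3* encodes a growth factor receptor kept by dendritic cells, and *Ccr7* and *Ccl22* are a homing receptor and a chemokine of mature dendritic cells.

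The class II-high cells numbered 49 of the 6071 kept Ctrl cells, 52 of the 5065 from LP1 and 59 of the 4670 from LP4. These are 0.807% of Ctrl (exact binomial interval 0.598 to 1.07%), 1.03% of LP1 (0.768 to 1.34%) and 1.26% of LP4 (0.963 to 1.63%). The libraries also differed in depth, with 35749924 UMIs deposited for Ctrl, 52773906 for LP1 and 64787139 for LP4. After thinning to 2000 UMIs a cell (122, 13 and 45 shallower cells dropped out), 24, 21 and 19 cells met the rule, of 5949, 5052 and 4625. The 3 shares were then 0.403%, 0.416% and 0.411%, so the order of the unthinned shares was not seen at equal depth. The median depth of the class II-high cells was 5736, 9950 and 11643 UMIs for Ctrl, LP1 and LP4, against 5130.5, 9339 and 11785 in the other kept cells. Their UMIs summed to 315616, 558454 and 760926.

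The 4 genes that chose the cells are given as a description. *H2-Aa* (ENSMUSG00000036594), the alpha chain of the I-A molecule, was at 871 CPM in Ctrl, 1361 CPM in LP1 and 1224 CPM in LP4 (CPM, UMIs per 1000000 UMIs) in the class II-high cells and at 5.94, 5.01 and 4.73 CPM in the other cells. Its partner chain *H2-Ab1* (ENSMUSG00000073421) was at 764, 885 and 820.1 CPM in the class II-high cells, and *H2-Eb1* (ENSMUSG00000060586), the beta chain of I-E, at 539, 698 and 573 CPM. *Cd74* (ENSMUSG00000024610) was at 5059.9 CPM in Ctrl, 5098 CPM in LP1 and 4505 CPM in LP4 against 74.3, 53.2 and 55.0 CPM. The alpha chain gene of I-E was not analysed here. The mice carry other *H2* alleles than the C57BL/6 reference that the reads were aligned to, and what this does to the counts was not tested. About 1 in 100 kept cells held most of the *H2-Eb1* in each library: the class II-high cells had 85.9% of its Ctrl UMIs, 94.0% of its LP1 UMIs and 93.6% of its LP4 UMIs. For *H2-Aa* these shares were 56.7%, 74.5% and 76.4%, and for *Cd74* they were 37.8%, 50.7% and 50.7%. No UMI of *H2-Aa* was found in the 32, 24 and 28 neutrophil-like cells of the libraries (medians of 2940, 5877 and 9261.5 UMIs), which served as a reading of background, and none of *H2-Eb1*. *H2-Ab1* was at 0, 7.43 and 4.24 CPM in them, against 4.61, 3.18 and 3.30 CPM in the other cells, and *Cd74* at 0, 0 and 8.49 CPM. The neutrophil-like cells summed to 102183, 134514 and 235586 UMIs. That is too few to place the low *H2-Ab1* of the other cells above or below this reading. Of the other kept cells, 86.2% in Ctrl, 84.4% in LP1 and 80.2% in LP4 had no UMI of any of the 4 genes.

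Within the class II-high cells the class II share had medians of 0.689%, 0.638% and 0.626% and highest values of 2.74%, 3.85% and 2.62%. The lowest shares inside the limit were 0.251%, 0.211% and 0.204% in the same order, and the highest outside it, among cells with all 3 genes, were 0.193%, 0.181% and 0.197%. Another 143 kept cells reached 0.2% but lacked a UMI of at least 1 of the 3 genes. None of the class II-high barcodes occurred in another library, and 5 of the 160 had a doublet score above the 95th percentile of their library.

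The label was then set against transcripts that the rule did not use, and for most cells the data went against it. *Csf1r*, the receptor that macrophages need to survive, had a UMI in 152 of the 160 cells. *Adgre1*, which encodes F4/80, had one in 115 cells and *Cd68*, a lysosomal protein of macrophages, in 143. By contrast, *Flt3* was seen in 6 cells, *Zbtb46*, a transcription factor of dendritic cells, in 16, *Ccr7* in 4, *Ccl22* in 8 and the actin bundler *Fscn1* of mature dendritic cells in 4. *Zbtb46* was seen more often than in the other cells, in 10.2%, 9.62% and 10.2% of the class II-high cells against 1.03%, 2.13% and 1.08% at full depth. Thinned to 2000 UMIs, 2, 0 and 1 of the class II-high cells kept a UMI of it (4.08%, 0% and 1.69%) against 0.339%, 0.360% and 0.175% of the other cells, and the exact 95% binomial interval of the 0 of 52 cells in LP1 reached up to 6.85%. Some neutrophil-like cells had a UMI of *Csf1r* too, namely 5 of 32, 5 of 24 and 11 of 28, and where these came from was not tested. At 2000 UMIs a cell, *Csf1r* was found in 89.8%, 63.5% and 50.8% of the class II-high cells, 75.6%, 62.3% and 56.6% of the other cells and 19.0%, 10.0% and 10.7% of the neutrophil-like cells. For *Cd68* the class II-high cells had 55.1%, 63.5% and 52.5% at this depth, below the 80.5%, 80.9% and 67.5% of the other cells with intervals apart in all 3 libraries, and above the 19.0%, 5.00% and 10.7% of the neutrophil-like cells. For *Adgre1* they had 20.4%, 26.9% and 27.1%, against 29.2%, 31.9% and 38.8% of the other cells and 4.76%, 0% and 14.3% of the neutrophil-like cells. Over 23 macrophage genes, the median class II-high cell held 21994, 25702 and 22919 CPM in Ctrl, LP1 and LP4. The median of the other cells was 24433, 24236 and 21184 CPM, and the median neutrophil-like cell 6886, 10500 and 9664.5 CPM. *Lyz2*, the most abundant of these genes, is also made by neutrophils. The cells are therefore named here by the rule and not by a cell type.

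Single macrophage genes lay on both sides of their level in the other cells. *Csf1r* was at 944 CPM in Ctrl, 669.7 CPM in LP1 and 451 CPM in LP4 in the class II-high cells against 767, 520.0 and 421 CPM. *Adgre1* was at 129.9, 170.1 and 194 CPM against 169.8, 192 and 253 CPM. *Cd68* was at 586, 634 and 527 CPM against 885, 918 and 614 CPM, lower in each library. *Lyz2*, the lysozyme of myeloid cells, was at 10171, 11741 and 12272 CPM against 9201, 9662 and 8672 CPM. The summed macrophage list came to 21190.3, 23805 and 23077 CPM against 24441, 24237 and 21379 CPM. Of its 22 genes with enough counts, 0 were at least 2-fold higher and 0 at least 2-fold lower in all 3 libraries, and their median log2 ratio was -0.08 (0.03 with median-of-ratios scaling) beside -0.09 over all 5665 genes.

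**Figure D1:**
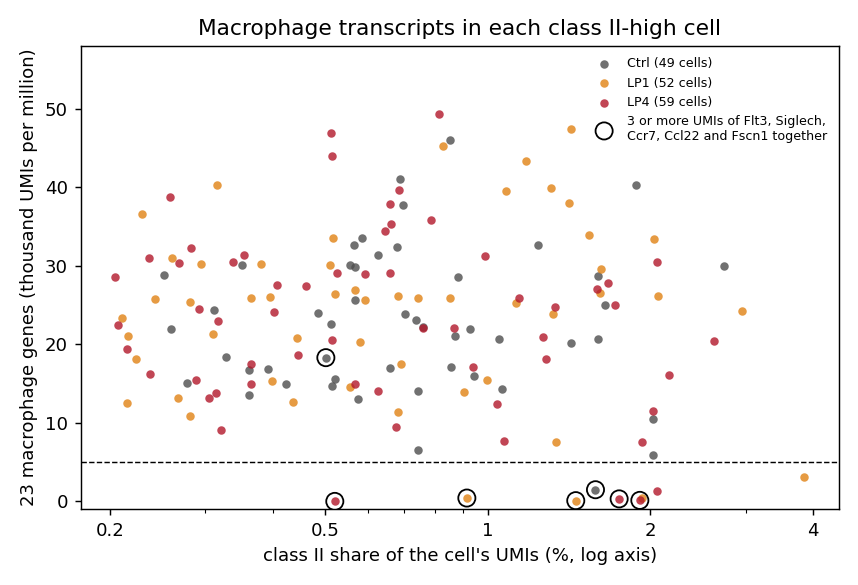
Each point is 1 of the 160 class II-high cells, with its class II share (% of its UMIs, log axis) against the summed level of 23 macrophage genes (1000 CPM), coloured by library. The dashed line is at 5000 CPM, 9 cells lie under it, and 6 of the 7 ringed cells, which hold at least 3 UMIs of *Flt3*, *Siglech*, *Ccr7*, *Ccl22* and *Fscn1* together, are among them.

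A small number of cells lay apart from this. The plot of macrophage transcripts in each cell shows 9 cells under 5000 CPM of the 23 macrophage genes, 1 from Ctrl, 4 from LP1 and 4 from LP4. This limit was set after the values were seen, and it falls in a gap between 3127 CPM and 5919 CPM. The 9 cells are 5.63% of the class II-high cells (exact binomial interval 2.60 to 10.4%), whereas 55 of the 15646 other kept cells, or 0.352% (0.265 to 0.457%), were under it. None of the 9 had a high doublet score, and none had a UMI of *Cd79a*, *Igkc* or *Cd3e*, which are genes of B and T cells, nor of *Xcr1*, *Clec9a* or *Cd209a*, which are genes of conventional dendritic cells. Other genes of such cells were present, since *Batf3* had 9, 2 and 1 UMIs in 3 of the cells, *Ly75* 12, 8 and 11 in 3 and *Irf8* 21, 6, 7 and 1 in 4.

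*Flt3*, *Ccr7* and *Ccl22*, the dendritic cell genes of the label, were concentrated in these 9 cells. They held 12 of the 14 *Flt3* UMIs of all class II-high cells, 43 of 50 of *Ccr7*, 91 of 98 of *Ccl22* and 24 of 26 of *Fscn1*. They also held 15 of 16 UMIs of *Siglech*, a lectin of plasmacytoid dendritic cells, and all 115 of *Il12b*, the p40 chain of interleukin 12 and interleukin 23. Of *Csf1r* they held 8 of 1015 UMIs and of *Lyz2* 9 of 19105. *Zbtb46* was not so concentrated, with 3 of its 21 UMIs in the 9 cells. The cells differed among themselves. An LP1 cell with 10653 UMIs had 21 of *Ccr7*, 60 of *Ccl22*, 14 of *Fscn1*, 114 of *Il12b* and 118 of *Ccl5*, a chemokine for T cells. An LP4 cell with 7689 UMIs had 19 of *Ccr7*, 29 of *Ccl22* and 7 of *Fscn1*. A second LP4 cell, with 7677 UMIs and none of the macrophage genes, had 6 of *Siglech*, 26 of *Tcf4* and 18 of *Bcl11a*, the latter both transcription factors of plasmacytoid dendritic cells. An LP1 cell with 4701 UMIs had 9 of *Siglech*, 5 of the homing receptor *Ccr9* and 13 of *Tcf4*. Another LP4 cell, with 6284 UMIs, had 3 of *Fscn1*, 21 of *Samsn1*, 11 of *Ly75* and 7 of *Ciita*, and its mature dendritic cell list summed to 13526 CPM, next to 23186 and 21719 CPM in the cells with 21 and 19 UMIs of *Ccr7*. The remaining 4 cells had no *Flt3* UMI and 0 to 3 of *Ccr7*, and 1 of them, from LP1, had the highest class II share of all, with 80 UMIs of *H2-Aa* and 183 of *Cd74* among 9274. Another of the 4, from LP4 with 6232 UMIs, had 9 each of *Tcf4*, *Bcl11a*, *Batf3* and *Ciita*.

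Beyond the 4 genes of the rule, the class II-high cells were compared with the other kept cells of their own library. Since they were chosen on the same cells, this is a description. Of 5665 genes with a mean of at least 20 CPM, 57 were at least 2-fold higher in all 3 libraries (1.01%) and 49 at least 2-fold lower (0.865%). Without the 9 cells described above the counts were 43 and 46, of which 40 and 46 were shared with the first. The filter takes the mean of both sets of cells, so a gene could pass through 1 of them alone. Of the 57 higher genes 26 had a mean under 20 CPM in the other cells, *Ciita*, *H2-DMb1*, *Cytip*, *Irf4*, *Ccl22* and *Ebi3* among them, and 26 of the 49 lower genes had one in the class II-high cells. Such genes had to differ to be counted, and counts of higher and lower genes in lists are a description only.

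Genes that load class II molecules were among the higher ones. *Ciita*, the coactivator of the class II genes, was at 44.4 CPM in Ctrl, 43.0 CPM in LP1 and 60.5 CPM in LP4 in the class II-high cells against 1.67, 0.693 and 0.643 CPM in the others. The log2 ratio was 4.73 (3.78 to 5.59) in Ctrl, 5.95 (5.14 to 6.74) in LP1 and 6.55 (5.91 to 7.21) in LP4. It was seen in 45 of the 160 cells, and 41 of these were among the 151 cells with macrophage transcripts. The 9 other cells held 19 of its 84 UMIs, 18 of them in LP4. Without them its levels were 45.2, 43.4 and 38.2 CPM, and the log2 ratios to other cells 4.76, 5.97 and 5.89. *H2-DMa* and *H2-DMb1*, the chains of the peptide exchanger, were at 199.6, 217 and 143 and at 165, 172 and 126 CPM against 22.4, 23 and 18.6 and 15.0, 15.9 and 13 CPM. Their log2 ratios lay between 2.95 and 3.46. The second beta chain gene, *H2-DMb2*, was at 34.9, 32.2 and 23.7 CPM against 3.02, 2.31 and 2.79 CPM, which is under the filter. The 2 *H2-DMb* genes are near-identical copies, so the split of reads between them is uncertain.

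The promoters of 3 of these genes are shown because class II genes are known to be switched on through a shared pair of elements, an X box bound by RFX and a Y box bound by NF-Y, where CIITA is recruited. The letters searched were GCAAC, from the X box, and TGATTGG, from the Y box, on both strands from 250 bases before to 50 bases after each gene start in a RefSeq table (GRCm38.p6, a C57BL/6J reference). Both are in capitals where found. *H2-DMa* has 2 entries in the table, and neither holds either string on the strand of the gene.
H2-Aa: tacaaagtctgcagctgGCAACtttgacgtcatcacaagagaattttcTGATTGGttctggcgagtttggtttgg
H2-Eb1: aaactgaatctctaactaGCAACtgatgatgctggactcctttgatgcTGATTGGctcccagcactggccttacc
H2-DMb1: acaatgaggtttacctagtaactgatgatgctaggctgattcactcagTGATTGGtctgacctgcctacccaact
These lie at chr17:34287847-34287921 on the minus strand, chr17:34305758-34305832 on the plus strand and chr17:34153080-34153154 on the plus strand. TGATTGG began 31 bases after GCAAC in *H2-Aa* and 30 bases after it in *H2-Eb1*, while in *H2-DMb1* the GCAAC letters are not in this window. Of the 8 class II genes found in the table, 5 had TGATTGG at 20 to 40 bases after GCAAC on 1 strand, namely *H2-Aa*, *H2-Eb1*, *H2-Eb2*, *H2-Oa* and *H2-Ob*. Over all 32851 promoters the pair was in 0.204%, GCAAC in 35.2% and TGATTGG in 7.82%. The letters were chosen after the promoters had been read, and a match is a description and not a binding site. *H2-Oa*, *H2-Ob* and *H2-Eb2*, which have it, had at most 3 UMIs in the class II-high cells of any library.

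Most other genes of the class II pathway did not differ by 2-fold. Of 20 genes in the list, 18 were in the matrices and 11 passed the filter, with 3 higher (*Ciita*, *H2-DMa* and *H2-DMb1*), 0 lower and a median log2 ratio of 0.12. *Ctss*, the protease that trims the invariant chain, was at 2804, 2686 and 3602 CPM against 1907, 1819 and 2566 CPM. *Ctsd*, another endosomal protease, went the other way, at 5367, 4022 and 3162 CPM against 8762, 6847 and 5378 CPM. *Rfxap*, a subunit of RFX, was at 25.3, 39.4 and 32.9 CPM against 22.5, 33.0 and 34.3 CPM.

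Several genes outside the class II pathway were also far higher. *Cytip*, a regulator of integrin adhesion in leukocytes, was at 228 CPM in Ctrl, 287 CPM in LP1 and 101 CPM in LP4 against 18.9, 17.5 and 7.44 CPM, with log2 ratios of 3.60, 4.03 and 3.77. A UMI of it was present in 20, 29 and 14 of the class II-high cells. The 9 cells with few macrophage transcripts held 103 of its 309 UMIs, 45 of them in LP4. Without them it was at 203.5, 209.6 and 43.7 CPM, with log2 ratios of 3.43, 3.58 and 2.55. *Irf4*, a transcription factor needed by a class of dendritic cells and induced in some macrophages, was at 69.7, 102 and 69.7 CPM against 11.3, 13.6 and 8.33 CPM. It was at 79.5 CPM in the 9 cells with few macrophage transcripts and at 80.8 CPM in the other 151.

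The membrane proteins *Tmem176a* and *Tmem176b*, which lie side by side in the genome, were at 69.7, 51.9 and 51.3 and at 108, 131 and 65.7 CPM against 5.91, 5.51 and 5.19 and 9.33, 9.09 and 8.48 CPM. The C-type lectin genes *Clec4n*, whose product is Dectin-2, and *Clec4b1* had log2 ratios of 2.52, 3.10 and 2.11 and of 2.76, 2.77 and 2.45. *Clec4n* was at 361, 498 and 237 CPM against 62.8, 58.2 and 54.7 CPM, and 566 of its 572 UMIs came from the 151 cells with macrophage transcripts. *Ifitm1*, an antiviral membrane protein, was at 402, 460.2 and 349.6 CPM against 62.8, 38.3 and 46.9 CPM. The paper lists *Clec4n* and *Ifitm1*, with *Cd74*, among the genes higher in a macrophage cluster that also has *Apoe* and *Slc9a9*. The contrast here is with all other kept cells pooled, and whether these genes set the class II-high cells apart from that cluster was not tested. *Ccl6*, a chemokine of myeloid cells, was at 573, 469 and 372 CPM against 129, 118 and 104 CPM, with no UMI in the 9 cells. All 226 UMIs of *Ptx3*, a secreted pattern recognition protein, likewise came from the 151 cells. *Ptx3* was at 101, 21.5 and 239 CPM in 6, 2 and 12 cells.

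**Figure D2:**
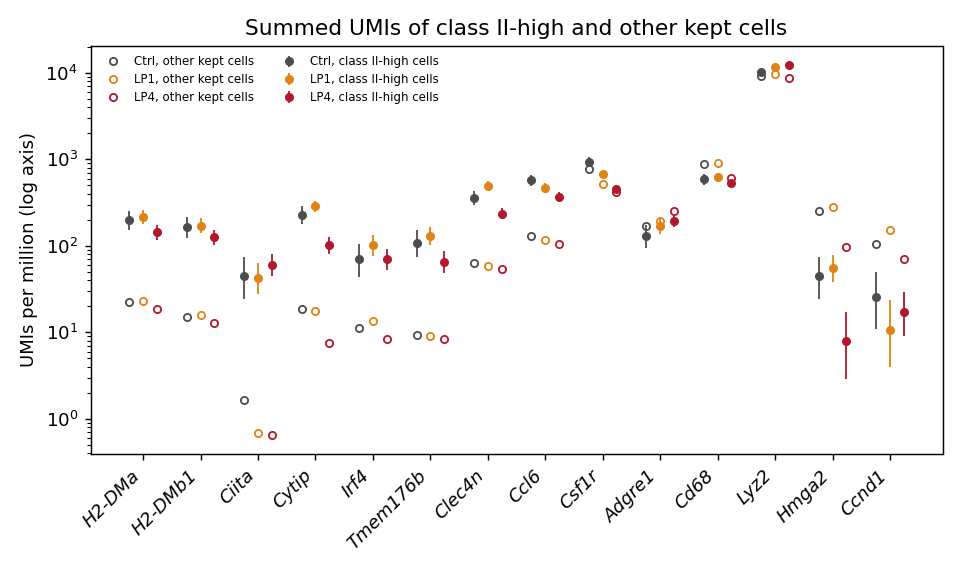
Summed CPM (log axis) of 14 genes in class II-high cells (filled, with exact Poisson 95% intervals) and in other kept cells (open) of Ctrl, LP1 and LP4. The filled points lie above the open ones from *H2-DMa* to *Ccl6*, near them from *Csf1r* to *Lyz2*, and below them for *Hmga2* and *Ccnd1*.

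*Ccl22* rested on very few cells, with 6, 63 and 29 UMIs in 4, 3 and 1 cells. Its mean log2 ratio over the 3 libraries was 8.20. Without the 9 cells 6, 1 and 0 UMIs were left. The 2 mature dendritic cell genes that passed the fold, of 10 with enough counts, were *Ccl22* and *Traf1*, an adaptor of TNF receptors. Neither was called without the 9 cells, *Traf1* because its LP4 ratio was 0.94 and *Ccl22* because it had too few counts. That list of 26 genes summed to 1622, 1635 and 1762 CPM against 1380.2, 1386 and 1435 CPM, with *Cd83* the most abundant gene and 2 genes at 0 in all 3 sums. Its median log2 ratio was 0.45, and 0.17 without the 9 cells.

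Some genes of the cell cycle and of neutrophils were among the lower ones. *Ccnd1*, the cyclin of early G1, was at 25.3 CPM in Ctrl, 10.7 CPM in LP1 and 17.1 CPM in LP4 against 106, 154 and 70.8 CPM, and *Hmga2*, a chromatin protein of growing cells, at 44.4, 55.5 and 7.89 CPM against 252, 278 and 97.6 CPM. The paper lists both among the genes higher in a macrophage cluster with *Fgf13*. Whether their lower level here follows that division of the macrophages was not tested. Of 14 S phase genes 4 passed the filter, and *Mcm3* and *Mcm6*, parts of the replication helicase, were at least 2-fold lower in all libraries. Their list had a median log2 ratio of -1.43. The 14 genes of G2 and mitosis had 7 with enough counts, 0 past the fold and a median of -0.79. *Mki67* or *Top2a*, both made by dividing cells, had a UMI in 94 of the 160 cells. At 2000 UMIs a cell *Mki67* was found in 28.6%, 21.2% and 35.6% of the class II-high cells and in 27.1%, 27.0% and 36.4% of the other cells. At 1000 UMIs it was found in 18.4%, 5.77% and 10.2% against 16.5%, 15.9% and 22.9%. The intervals at this depth were apart in LP4 alone (3.82 to 20.8% against 21.7 to 24.1%). *S100a8* and *S100a9*, the calcium binding proteins of neutrophils, had 1, 1 and 4 and 0, 0 and 2 UMIs, against 181, 99.3 and 199.6 and 140.1, 129.9 and 267 CPM in the other cells, which include the neutrophil-like cells. The neutrophil list summed to 196, 340.2 and 273 CPM against 603, 497 and 834 CPM, and 2 of its 4 genes with enough counts were lower. *Dach1*, *Adamts1*, the lysosomal sulfatase *Arsb* and the long noncoding *Mir99ahg* completed the 8 genes with the lowest ratios, each with at most 16.1 CPM except *Mir99ahg* at 22.2, 19.7 and 9.20 CPM.

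Lists for other cell types gave few genes past the fold, to be read beside the 1.01% of all genes that were higher and the 0.865% that were lower. Of the genes with enough counts, 1 of 6 shared dendritic cell genes and 1 of 3 genes of the cDC2 class of conventional dendritic cells were higher, in both cases *Irf4*. For the cDC1 class 0 of 4 were, and for plasmacytoid cells 0 of 3. Among 5 monocyte genes 0 were higher and *Fn1*, fibronectin, was lower. The B cell, mast cell, stromal and erythroid lists had no gene over the filter and summed to at most 21.5 CPM in the class II-high cells of any library. The T, NK and innate lymphoid list had *Il7r* alone, which was not past the fold. Among functional lists, 0 of 17 class I presentation genes, 0 of 10 costimulation and checkpoint genes, 0 of 5 chemokine receptors, 0 of 23 interferon response genes, 0 of 23 immediate early genes and 0 of 11 TLR recognition genes passed in either direction. Of 15 chemokine genes *Ccl5*, *Ccl6* and *Ccl22* were higher and the monocyte chemokines *Ccl2* and *Ccl7* and *Cxcl14* were lower. In Ctrl *Ccl5* rested on 8 UMIs in 3 cells, with a log2 ratio of 1.20 (-0.02 to 2.19). Without the Ctrl cell with most of these UMIs the ratio was 0.21, under the fold. Of 12 cytokine genes only *Ebi3* was higher, of 15 NF-κB genes only *Traf1*, and of 5 genes linked to IL-4 only *Ccl22*. Without the 9 cells these 3 calls were lost. *Ebi3* then had log2 ratios of 1.69, 1.15 and 0.95 and *Traf1* of 1.22, 1.53 and 0.94, just under the fold in LP4, and *Ccl22* fell under the filter.

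The class II-high cells also varied along the class II share. They fell into 52 cells with 0.2 to under 0.5%, 62 with 0.5 to under 1%, 34 with 1 to under 2% and 12 with 2% or more. *H2-DMa*, which the rule did not use, was at 102, 172, 329.8 and 364 CPM in these bands, and *H2-DMb1* at 91.8, 146, 277 and 232 CPM. *Ciita* was at 35.9, 29.5, 98.6 and 162 CPM and *Cytip* at 45.9, 172, 523 and 404 CPM, and for each of these genes the counting intervals of the lowest and highest bands did not overlap. Without the 9 cells with few macrophage transcripts this held for *H2-DMa* (102 to 359 CPM), *H2-DMb1* (91.8 to 251 CPM) and *Cytip* (45.9 to 299 CPM). Within single libraries the intervals of these bands were apart in all 3 for *Cytip*, in LP1 and LP4 for *H2-DMa*, in Ctrl and LP4 for *Ciita* and in none for *H2-DMb1*, with 3 to 5 cells in the top band. For *Ciita* in LP4, 9 of the 10 UMIs of the top band lay in 1 cell, which is among the 9 cells low in macrophage transcripts. Without the 9 cells, the intervals for *Ciita* overlapped over all libraries, with 35.9 CPM (23.2 to 53.0) in the lowest band and 83.8 CPM (33.7 to 173), from 7 UMIs, in the highest. The class II pathway list as a whole, in which *Ctsl* is the most abundant gene, went the other way. With libraries pooled, its sum per cell had medians of 19454, 15985.5, 11386 and 9745 CPM from the lowest to the highest band. Its rank correlations with the class II share were -0.25, -0.51 and -0.49 for Ctrl, LP1 and LP4 cells. *Csf1r* was at 581, 718, 527 and 586 CPM and *Adgre1* at 185, 163, 167 and 172 CPM over the pooled libraries, which differ in level and in their share of each band. Within libraries *Csf1r* was at 853, 953, 1038 and 1302 CPM in Ctrl, 653, 754, 569.5 and 699 CPM in LP1 and 451, 549.9, 269.7 and 329.8 CPM in LP4. *Adgre1* differed in direction between libraries. It was at 69.4, 133, 254 and 109 CPM in Ctrl, 193, 125, 171 and 203 CPM in LP1 and 213, 207, 126 and 154 CPM in LP4. Pooled *Cd68* was at 664 (605 to 728), 553 (494 to 617), 421 (346 to 507) and 485 (357 to 643) CPM. The cells with a share of 0.5% or more were shallower. Their median depth was 13247, 8397.5, 7329 and 9375 UMIs, and the rank correlation of share and depth over cells was -0.51 in Ctrl (49 cells), -0.45 in LP1 (52) and -0.52 in LP4 (59), where both measures hold the cell's UMI total. The part of depth in these bands was not tested.

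**Figure D3:**
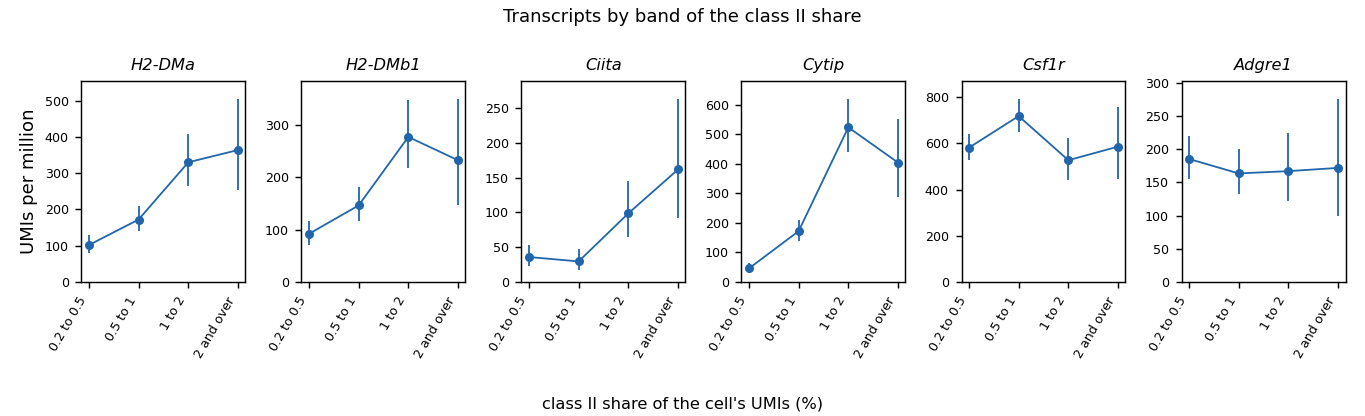
Summed CPM of 6 genes in class II-high cells of all libraries, by band of the class II share (% of the cell's UMIs), with exact Poisson 95% intervals. *H2-DMa*, *H2-DMb1*, *Ciita* and *Cytip* were higher at shares of 1% and over than under 0.5%, while the pooled *Csf1r* and *Adgre1* had overlapping intervals in the lowest and highest bands, as had *Ciita* without the 9 cells low in macrophage transcripts.

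Next, the libraries were compared within the class II-high cells, where LP1 and LP4 share the Ctrl library. Of 5536 genes with a mean of at least 20 CPM over the 3 sums, 750 were at least 2-fold higher in LP4 than in Ctrl (13.5%) and 957 at least 2-fold lower (17.3%). For LP1 over Ctrl the counts were 300 higher (5.42%) and 293 lower (5.29%). In the other cells, whose sums are far deeper, the same genes gave 593 and 478 for LP4 and 37 and 20 for LP1. The split depended on the scaling. With TMM, which moved the median log2 ratio of all genes by 0.26, LP4 had 1015 higher and 680 lower, and with median-of-ratios scaling, which moved it by 0.22, 981 and 692. LP1 had 348 and 248 with TMM and 326 and 266 with median-of-ratios scaling. In the other cells TMM gave 802 and 315 for LP4 and 63 and 6 for LP1. Median-of-ratios scaling gave them 656 and 416 for LP4 and 43 and 19 for LP1.

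In LP4, interferon response genes were among the highest. *Ifit1*, an antiviral protein that binds foreign RNA, was at 38.0 CPM in Ctrl, 44.8 CPM in LP1 and 2447 CPM in LP4 in the class II-high cells. The log2 ratio of LP4 over Ctrl was 6.01 (5.20 to 6.96), and 5.66 in the other cells. It had a UMI in 5, 9 and 57 cells of the 3 libraries. All 24 interferon response genes with enough counts were at least 2-fold higher in LP4 than in Ctrl, with a median log2 ratio of 2.92 beside -0.15 over all genes. In the other cells 23 of the 24 were, with a median of 2.78. Of all genes 13.5% were at least 2-fold higher in the class II-high cells of LP4 than in those of Ctrl. *Cxcl10*, a chemokine for activated T cells, was at 19.0, 59.1 and 955 CPM, *Cmpk2*, a mitochondrial nucleotide kinase, at 12.7, 30.4 and 727 CPM and *Igtp*, a GTPase, at 3.17, 16.1 and 134 CPM. *Ifit2*, of the same family as *Ifit1*, was at 31.7, 91.3 and 1401 CPM and *Ifi205* at 3.17, 25.1 and 183 CPM. Over the whole list the median class II-high cell held 628, 692 and 17364 CPM and the median other cell 703, 657 and 14030 CPM.

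Chemokine and cytokine genes were also among the higher ones. *Cxcl3*, a neutrophil chemokine, was at 9.51 CPM in Ctrl, 7.16 CPM in LP1 and 930.4 CPM in LP4. It had the highest ratio of the named genes when those with 0 UMIs in Ctrl are put at the floor of 3 counts. *Ccl4*, a chemokine for monocytes and T cells, was at 101, 429.8 and 4024 CPM against 114, 289 and 2505 CPM in the other cells. Over all genes 13.5% were at least 2-fold higher in LP4 and 17.3% lower. Of 15 chemokine genes 8 were at least 2-fold higher in LP4 and 1 lower (median log2 ratio 1.00), against 7 and 1 in the other cells (0.27). *Ccl22* is 1 of the 8, and its ratio of 1.00 is the median. Its 29 LP4 UMIs lay in 1 cell, and 0 were left without the 9 cells low in macrophage transcripts. *Tnfsf15*, a TNF family ligand that costimulates T cells, had 0 UMIs in Ctrl and 1 in LP1, and was at 509 CPM in LP4, from 387 UMIs in 20 of the 59 cells. In the other LP4 cells it was at 47.7 CPM, a log2 ratio of 3.42 (3.26 to 3.57). Of 14 cytokine genes 7 were higher and 3 lower, against 7 and 2 in the other cells. *Il1b* was at 516, 777 and 1690.0 CPM and *Il15*, which sustains memory T and NK cells, at 66.5, 136 and 933 CPM, while *Tnf* was at 672, 599.9 and 286 CPM.

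**Figure D4:**
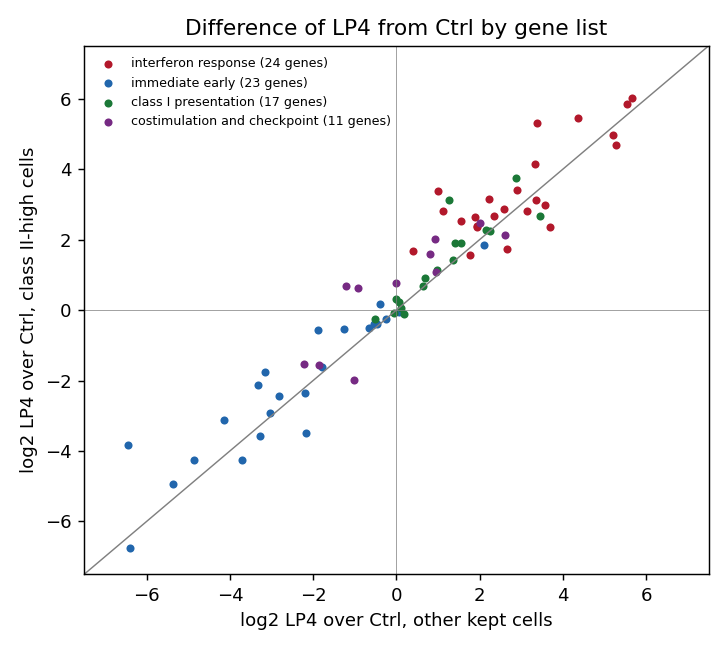
Log2 ratio of LP4 over Ctrl for the genes of 4 lists, in the other kept cells (horizontal) and in the class II-high cells (vertical), with the line of equal values. The 24 interferon response genes lie above 0 in both and most immediate early genes below 0, with medians of 2.92 and -2.13 in the class II-high cells.

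Immediate early genes were lower in LP4. Of 23, 14 were at least 2-fold lower and 1 higher, with a median log2 ratio of -2.13, and in the other cells 16 and 1, with a median of -2.19. Over all genes 17.3% were lower and 13.5% higher in the class II-high cells. *Fosb*, a subunit of AP-1, was at 282, 211 and 2.63 CPM. *Nr4a1*, a nuclear receptor of early responses, had 38, 71 and 0 UMIs, and with LP4 put at a floor of 3 counts its log2 ratio of LP4 over Ctrl is -4.93, an upper bound. *Vegfa*, a vascular growth factor, was at 127, 82.4 and 5.26 CPM and *Pitpnc1*, a lipid transfer protein, at 745, 455 and 35.5 CPM, with a log2 ratio of -4.39 (-5.02 to -3.81) against -2.88 in the other cells. *N4bp2l1*, *Cass4*, *Prkag2* and *Gcnt1*, each at 50.7 to 60.2 CPM in Ctrl, had 1 or 2 UMIs in LP4.

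The class II chains and *Cd74* differed by less than 2-fold between LP4 and Ctrl. The log2 ratio of LP4 over Ctrl was 0.49 (0.29 to 0.69) for *H2-Aa*, 0.10 (-0.11 to 0.32) for *H2-Ab1* and -0.17 (-0.25 to -0.08) for *Cd74*, the last turning to 0.092 with TMM and 0.052 with median-of-ratios scaling. All 3 genes are bound by the rule. *Ciita* had 0.45 (-0.44 to 1.42), which turned to -0.24 (-1.22 to 0.80) without the 9 cells low in macrophage transcripts, *H2-DMa* -0.48 (-0.94 to -0.01) and *H2-DMb1* -0.39 (-0.89 to 0.13). Of all genes 13.5% were at least 2-fold higher in LP4 and 17.3% lower. Of the 12 class II pathway genes with enough counts 3 were at least 2-fold higher and 0 lower, against 3 and 1 in the other cells. These were the proteases *Ctsl*, at 2810.4, 4065 and 7104 CPM, and *Lgmn*, at 133, 392 and 618 CPM, and *March1*, the ubiquitin ligase that removes class II from the surface, at 41.2, 10.7 and 226 CPM against 20.0, 16.4 and 270.4 CPM in the other cells. Class I presentation differed more. Of 17 genes 9 were at least 2-fold higher in LP4 (median log2 ratio 1.13, and 0.97 with 8 of 17 in the other cells). Among them *B2m*, the light chain of class I, was at 259.8, 505 and 1267 CPM and *Nlrc5*, the class I coactivator, at 31.7, 26.9 and 202 CPM.

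In LP1 the genes with the highest ratios to Ctrl rested mostly on single cells. *Il12b* (114 of 114 UMIs), *Ccl5* (118 of 128), *Hist1h1b* (60 of 81), *Ctsk* (39 of 72), *Hist1h2ap* (27 of 47) and *Hist1h1e* (18 of 35) each had most of their LP1 UMIs in 1 cell. *Osm*, a cytokine of the interleukin 6 family, did not. It had 3, 70 and 21 UMIs in 3, 22 and 16 cells and was at 9.51, 125 and 27.6 CPM, with a log2 ratio to Ctrl of 3.72 (2.11 to 6.03) at LP1, against 1.25 in the other cells. The growth factor *Areg* had 0, 35 and 0 UMIs, in 9 cells of LP1. *Junb*, an AP-1 subunit, was at 612, 1431 and 518 CPM, a log2 ratio of 1.23 (1.00 to 1.46) for LP1 against 1.02 in the other cells. *Ccl3* was at 120.4, 460.2 and 1066 CPM against 133, 264 and 746 CPM. Of the 24 interferon response genes 10 were at least 2-fold higher in LP1 than in Ctrl, with a median log2 ratio of 0.58, while 1 was in the other cells, with a median of -0.29. Without the 2 LP1 cells highest in these genes, 7 were, with a median of 0.23. Of all genes 5.42% were at least 2-fold higher in LP1 in the class II-high cells.

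The remaining lists were also counted for LP4 over Ctrl, where 13.5% of all genes were higher and 17.3% lower. Of 7 monocyte genes 6 were at least 2-fold higher and 1 lower (median log2 ratio 1.90), against 5 and 0 in the other cells (1.26). Among them *Vcan*, a proteoglycan, was at 47.5, 25.1 and 283 CPM and *Ms4a4c* at 9.51, 46.6 and 159 CPM, while *Ccr2*, the receptor that draws monocytes from the marrow, was at 47.5, 66.3 and 23.7 CPM. Of 5 genes linked to IL-4, 3 were higher and 1 lower, against 1 and 0, and *Il4ra*, the receptor chain, was at 72.9, 37.6 and 492 CPM against 31.2, 28.4 and 649 CPM. Of 13 mature dendritic cell genes 5 were higher and 3 lower, against 1 and 3. *Ccl22* is among the higher genes of both the IL-4 and the mature dendritic cell list, from 29 LP4 UMIs in 1 cell. Without the 9 cells low in macrophage transcripts 0 of these were left. The macrophage genes, with 3 and 3 of 22 (2 and 3 in the other cells), were near the shares over all genes. For TLR recognition the counts were 4 and 0 of 12, against 5 and 1, and for NF-κB genes 1 and 0 of 15 in both. The shared dendritic cell list had 1 and 0 of 7 (0 and 0), the cDC1 list 1 and 2 of 4 (1 and 1), the cDC2 list 0 and 1 of 3 (0 and 1), plasmacytoid genes 1 and 0 of 3 (1 and 0) and chemokine receptors 1 and 2 of 6 (1 and 1). S phase had 1 and 0 of 1 (1 and 0), G2 and mitosis 0 and 2 of 3 (0 and 0), neutrophil genes 1 and 0 of 2 (1 and 0) and *Il7r* was not past the fold. *Cd14*, the coreceptor that hands lipoproteins to TLR2, was at 368, 800.4 and 2007 CPM and *Tlr2* itself at 136, 184 and 205 CPM, against 107, 118 and 309.9 CPM in the other cells.

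The 8 genes lowest in LP1 against Ctrl included the chemokine *Ccl24* at 85.5, 5.37 and 40.7 CPM, *Ston2*, an endocytic adaptor, at 79.2, 16.1 and 14.5 CPM and the kinesin *Kif26b* at 66.5, 7.16 and 0 CPM. *Pde1c*, *Sfxn3*, *Ptx3* and *Col24a1* had 53.9 to 101 CPM in Ctrl and 7.16 to 21.5 CPM in LP1. The last, *Micu3*, had 38 of its 39 Ctrl UMIs in 1 cell.

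Last, the difference of LP4 from Ctrl was compared between the class II-high and the other cells. *Cd86*, the costimulatory ligand of CD28 on T cells, was at 241 CPM in Ctrl, 292 CPM in LP1 and 389 CPM in LP4 in the class II-high cells and at 164, 124 and 71.5 CPM in the others. The log2 ratio of LP4 over Ctrl was 0.69 (0.32 to 1.08) in the former and -1.20 in the latter, and the ratio between both sets of cells was 0.55 (0.21 to 0.88) in Ctrl and 2.44 (2.27 to 2.61) in LP4. *Cd86* was present in 29 of 49, 33 of 52 and 46 of 59 cells, and 59 of its 535 UMIs came from the 9 cells with few macrophage transcripts. The paper lists *Cd86*, too, among the genes higher in the cluster with *Apoe* and *Slc9a9*, and the class II-high cells were not compared with that cluster alone. *Cd40*, which receives help from T cells, was at 50.7, 91.3 and 281 CPM against 50.3, 51.7 and 204 CPM, and *Cd274*, the inhibitory ligand PD-L1, at 304, 442 and 1329 CPM against 175, 178 and 1066 CPM. Of 11 costimulation and checkpoint genes 5 were at least 2-fold higher and 3 lower in LP4 than in Ctrl (median log2 ratio 0.77), against 2 and 4 in the other cells (0.00). Over all genes 13.5% were higher and 17.3% lower in the class II-high cells.

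*Ahr*, the aryl hydrocarbon receptor, went the opposite way. It was at 139 CPM in Ctrl, 80.6 CPM in LP1 and 22.3 CPM in LP4 in the class II-high cells, in 22, 22 and 13 cells, and at 26.8, 28.7 and 27.5 CPM in the others. The log2 ratio of LP4 over Ctrl differed between both sets of cells by -2.68 (-3.50 to -1.87). *Egr1*, an early transcription factor, was at 129.9, 222 and 9.20 CPM against 288, 316 and 3.31 CPM, a difference of 2.62 (1.45 to 3.80). Its LP4 level rests on 7 UMIs in 3 cells, 4 of them in 1 cell. *Gpr183*, a receptor that guides cells within lymphoid tissue, was at 60.2, 73.4 and 95.9 CPM against 61.9, 49.9 and 4.06 CPM. Its difference of 4.60 (3.85 to 5.36) was the largest upward one among the named genes. Its 73 LP4 UMIs lay in 5 cells, with 36 in 1 of them and 7, 8, 15 and 7 in the 4 LP4 cells with few macrophage transcripts. Without the 9 such cells its 36 LP4 UMIs lay in 1 cell, and its LP4 log2 ratio to the other cells was 3.60. It was then at 54.9, 73.7 and 49.1 CPM, and its log2 ratio of LP4 over Ctrl was -0.16 (-1.03 to 0.76). That of *Cd86* was 0.62 (0.23 to 1.02), that of *Ahr* -2.62 (-3.52 to -1.78) and that of *Egr1* -3.79 (-5.20 to -2.62).

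**Figure D5:**
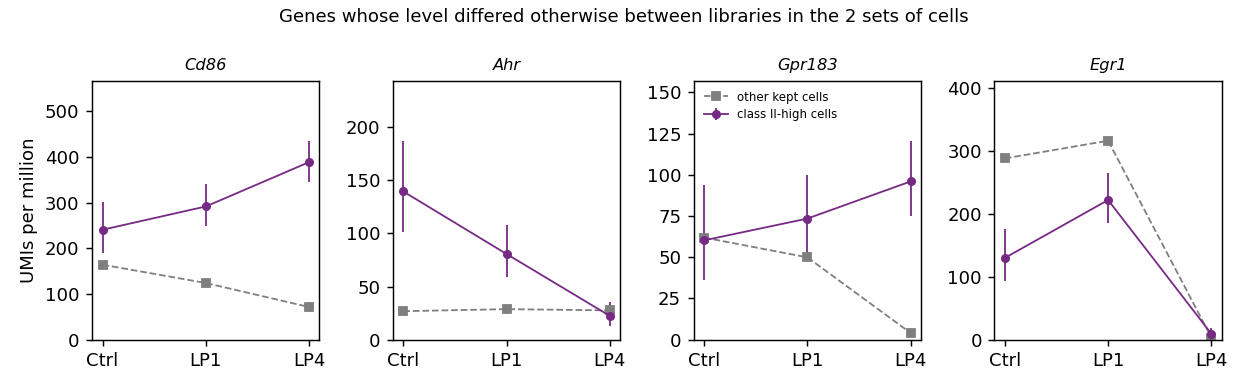
Summed CPM of *Cd86*, *Ahr*, *Gpr183* and *Egr1* in Ctrl, LP1 and LP4, in class II-high cells (circles, with exact Poisson 95% intervals) and in other kept cells (squares). *Cd86* is higher in LP4 than in Ctrl in the class II-high cells and lower in the others, and *Ahr* is lower in the class II-high cells alone. *Gpr183* goes as *Cd86* does, but without the 9 cells low in macrophage transcripts its LP4 over Ctrl log2 ratio in the class II-high cells is -0.16. Its LP4 level is then still above that of the other cells (log2 ratio 3.60), from 36 UMIs in 1 cell.

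The other genes of this comparison rested on few counts as well. *Fabp3*, *Stard3nl*, *Mrpl32* and *Fn1* had 1 or 2 UMIs in Ctrl, so that their larger change in the class II-high cells has intervals that reach down to 0.17 to 0.62. *Top2a* and *Stmn1*, both needed for mitosis, each had 4 UMIs in LP4, against 70.2, 79.1 and 58.3 and 133, 141 and 73.3 CPM in the other cells, and differed by -3.25 (-4.81 to -1.69) and -2.73 (-4.28 to -1.18). Of the 19 *Top2a* UMIs in Ctrl 12 lay in 1 cell. *Inhba*, the activin A chain, differed by -3.86 (-4.73 to -3.00), with 12 of its 15 Ctrl UMIs in 1 cell, and *Slc28a2*, a nucleoside transporter, by -2.84 (-4.17 to -1.50). *Ch25h*, which makes 25-hydroxycholesterol, and *Nos2*, the inducible nitric oxide synthase, had no UMI in Ctrl or LP1 and were at 122 and 249.7 CPM in LP4, beside 161 and 189.6 CPM in the other cells.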

How the data were processed

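The authors made 3′ single-cell libraries (10x chemistry) of 3 conditions and deposited a filtered matrix of UMI counts per gene and cell for each, made per the labels with Cell Ranger 7.1.0 and the mouse mm10 reference. These counts are not normalized. Each matrix had 32285 genes, and 16281 barcodes were read, of which 15806 passed the limits given above. UMIs were summed over the cells of a class in each library and divided by the sum's total (CPM). Ratios have exact conditional binomial intervals, levels exact Poisson and shares exact binomial ones, all for counting error only. A ratio against 0 uses a floor of 3 counts. Called means at least 2-fold, among genes with a mean of at least 20 CPM, and against other cells in all 3 libraries. With 1 library per condition there was no test. Doublet scores came from Scrublet (scanpy 1.11.5), and no cell was removed for its score. Neutrophil-like cells had at least 1% of UMIs in 6 neutrophil genes.

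The 160 cells and the 27 gene lists were chosen with earlier results of these data known. Named genes were the genes of the rule and label, the 12 highest and 8 lowest against other cells by their weakest library, the 8 highest and 8 lowest for LP1 and LP4 over Ctrl where the higher library reached 50 CPM, the 8 largest differences between class II-high and other cells in LP4 over Ctrl, upward and downward, for genes that reached 20 UMIs in Ctrl and LP4 together, and up to 4 genes per list. Mitochondrial, ribosomal protein and unnamed genes were left out, and a few genes that met the rule are not reported here. Alternatives were TMM (edgeR 4.0.16) and median-of-ratios scaling, other limits on the class II share, UMIs and CPM, thinning, and, chosen after seeing the data, leaving out cells low in macrophage genes, the bands of each library, or the LP1 cells highest in interferon genes. Python 3.11.15 and R 4.3.3 were used. Calculations were tested on simulated data.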

Additional observations from a re-analysis of the deposited data

Results flagged for a closer look

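*Eef1a2*, a translation elongation factor of nerve and muscle, had ratios of LP4 over Ctrl of opposite sign in the class II-high and the other cells. It was at 9.51, 26.9 and 26.3 CPM in the class II-high cells of Ctrl, LP1 and LP4 and at 30.2, 20.0 and 14.8 CPM in the others. The log2 ratio of LP4 over Ctrl was 1.47 (-0.29 to 3.86) in the former and -1.03 in the latter, a difference of 2.50 that was not tested. Its 20 LP4 UMIs lay in 5 cells, with 15 in 1 of them. Without the cell with most UMIs, its LP4 log2 ratio to the other cells went from 0.83 to -1.13.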

How the results depend on the processing

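Of the summary values under all alternatives, 43 moved by over 1.5 times (counts) or by more than counting error, and 191 did not. Among the latter the macrophage list's median against other cells changed sign, from -0.076 to 0.029 with median-of-ratios scaling. Of the values outside this summary, 32 moved, 3 reversed and 128 did neither. The share of kept cells meeting the rule was 0.652% in LP1 and 0.792% in LP4 with a class II share of at least 0.5%. It was 0.511%, 0.691% and 0.921% in Ctrl, LP1 and LP4 with at least 2 UMIs of each gene, and 2.06%, 1.82% and 1.84% with no minimum per gene. Thinning gave 0.403%, 0.416% and 0.411% at 2000 UMIs and 0.132%, 0.276% and 0.172% at 1000 UMIs. With the 0.5% limit, 86 genes were higher and 84 lower than in other cells, with a 5 CPM filter 127 and 116, and with 50 CPM 34 and 26. For LP1 over Ctrl the 0.5% limit gave 466 higher and 474 lower, 2 UMIs of each gene 493 and 462, 5 CPM 804 and 864 and 50 CPM 103 and 71. For LP4 over Ctrl 5 CPM gave 1288 and 1991 and 50 CPM 415 and 435. The median log2 ratio to other cells of the class II list was 0.29 with the 0.5% limit and 0.35 with 2 UMIs. That of the mature dendritic cell list was 1.01 and 0.80 with these, 1.09 with 5 CPM, 0.11 with 50 CPM and 0.17 without the 9 cells. With the 0.5% limit the S phase list had -2.04 and the G2 and mitosis list -1.91. The class I list of LP4 over Ctrl had 0.69 with 50 CPM, and the interferon list of LP1 over Ctrl 1.47 with 2 UMIs of each gene. *Cd74* in LP4 over Ctrl reversed to 0.038 with the 0.5% limit, 0.092 with TMM and 0.052 with median-of-ratios scaling. The cause of these moves was not tested. No paired analysis was possible because each condition is 1 library. Ratios against 0 UMIs are bounds set by the floor of 3 counts. Differences between wells, days or libraries cannot be told apart from treatment.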
